A study of Mus musculus with 6 samples.

Results

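The genes described here were 50 genes of DNA replication and the cell cycle, chosen by name from the 24214 gene rows of the count tables, and all 50 were found under their own symbols. They were measured in 393P, a cell line from a mouse lung adenocarcinoma (LUAD). Its cells have epithelial features that they lose under ZEB1, a transcription factor of the epithelial-to-mesenchymal transition; the labels call them KP lung cancer cells of strain C57BL/6. Stable transfectants with a ZEB1 expression vector (393P_ZEB1, n = 3) were compared with transfectants that carried the empty vector (393P_vector, n = 3), and both groups had been selected for the plasmid and grown in RPMI-1640 medium with serum. Total RNA was sequenced on the SOLiD platform, and the tables hold read counts per gene. The comparison asks which transcripts differ in level when ZEB1 is expressed. The labels do not say whether the 3 samples of a group came from separate cultures or transfections, so p-values measure the spread between these samples only, which may be technical. Whether a transfectant was a clone or a pool is not stated there either.

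A cell that divides passes from G1 through DNA replication in S phase to G2 and mitosis. D-type cyclins with CDK4 and CDK6, and then E-type cyclins with CDK2, phosphorylate the retinoblastoma protein RB and so release E2F transcription factors, which activate the genes of replication. Before S phase, CDC6 and CDT1 load the MCM2 to MCM7 hexamer onto origins of replication, where it later unwinds DNA together with CDC45 and the GINS complex. Cyclins A and B with CDK1 then drive entry into mitosis, and the kinases PLK1, Aurora A and Aurora B, the spindle checkpoint and the anaphase-promoting complex carry cells through it. FOXM1, B-MYB and the MuvB complex activate the genes of G2 and mitosis.

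The promoters of these genes are known for E2F sites, CCAAT boxes bound by NF-Y and, in genes of G2 and mitosis, the cell cycle genes homology region (CHR). RefSeq promoter windows on GRCm38.p6, each holding 250 bases before an annotated start and the first 50 from it on, were matched by symbol for 37 of the 50 genes. One of the E2F letter strings TTTGGCGC, TTTCGCGC, TTTCCCGC and TTTGCCGC, on either strand, was found in 12 of the 37 windows (32.4%), against 2.26% of all 32851 windows of this length. The string CCAAT was found in 26 of 37 (70.3%, all windows 37.4%), and the CHR string TTTGAA in 11 of 37 (29.7%, all windows 17.9%). CACCTG, an E-box string of the kind that ZEB1 binds, was found only in the window of Tyms, 1 of 37 (2.70%), against 20.2% of all windows. These shares are descriptions, with no test. A string is not a bound site, and its absence says only that these letters are not in this window. Of the genes that rose, fell or did not pass the test below, 2 of 5, 4 of 9 and 6 of 23 with a window held an E2F string. The 5 stretches that follow are shown because each holds E2F strings, while 2 of the genes fell in 393P_ZEB1 (Mcm3, Mcm5), 2 rose (Mcm6, E2f3) and Mcm7 did not pass the test. Each runs 5′ to 3′ on the gene's strand for 200 bases, from 170 before the start through the first 30 transcribed bases, and capitals mark the E2F strings, which overlap each other in Mcm5 and once in Mcm6.

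Mcm3, chr1:20820283-20820482, minus strand: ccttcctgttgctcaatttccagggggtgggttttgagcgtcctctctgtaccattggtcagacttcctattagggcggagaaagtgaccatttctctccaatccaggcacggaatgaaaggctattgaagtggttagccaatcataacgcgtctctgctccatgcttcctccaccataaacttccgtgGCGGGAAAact
Mcm5, chr8:75109339-75109538, plus strand: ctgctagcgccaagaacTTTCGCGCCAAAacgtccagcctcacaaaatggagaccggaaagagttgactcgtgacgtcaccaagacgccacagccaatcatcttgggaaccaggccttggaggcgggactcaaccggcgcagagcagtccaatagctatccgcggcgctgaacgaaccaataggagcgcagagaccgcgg
Mcm6, chr1:128359676-128359875, minus strand: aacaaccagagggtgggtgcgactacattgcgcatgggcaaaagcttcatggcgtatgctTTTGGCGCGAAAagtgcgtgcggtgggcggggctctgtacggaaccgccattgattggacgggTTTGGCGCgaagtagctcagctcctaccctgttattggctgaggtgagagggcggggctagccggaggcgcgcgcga
Mcm7, chr5:138171854-138172053, minus strand: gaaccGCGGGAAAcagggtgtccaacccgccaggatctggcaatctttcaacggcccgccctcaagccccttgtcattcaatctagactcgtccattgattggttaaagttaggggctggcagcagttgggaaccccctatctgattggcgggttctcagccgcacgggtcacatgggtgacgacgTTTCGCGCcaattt
E2f3, chr13:29986034-29986233, minus strand: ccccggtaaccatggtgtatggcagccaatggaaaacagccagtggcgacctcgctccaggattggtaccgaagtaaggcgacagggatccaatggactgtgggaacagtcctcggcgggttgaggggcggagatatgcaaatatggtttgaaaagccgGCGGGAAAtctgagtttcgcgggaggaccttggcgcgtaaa

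Total counts ranged from 54442450 to 79158012 per sample, so that 3 counts, the limit that a count of 0 allows, correspond to 0.0361 to 0.0561 counts per 1000000 (CPM), and these limits cover counting error only. Levels are CPM with library sizes scaled by the trimmed mean of M-values (TMM), and the lowest count of any of the 50 genes in any sample was 212. Reads assigned to Zeb1, the transfected gene, rose from 21.5 ± 0.435 to 51.7 ± 3.01 CPM (SD, n = 3), a log2 fold change of 1.26 ± 0.10 (SE; edgeR quasi-likelihood test, adjusted p = 6.06e-05); relative to the median of chromosome 18 it was 0.63 (adjusted p = 0.00269). The summed level of 6 epithelial markers was 4629 to 5286 CPM in 393P_vector and 2746 to 3042 CPM in 393P_ZEB1, and 5 mesenchymal markers summed to 7593 to 8372 and 10572 to 11860 CPM. These sums rest mostly on the keratins and on Vim and Fn1. Single log2 fold changes were -4.09 for Cdh1, -6.53 for Epcam, -8.40 for Cldn4, -0.61 for Krt8, -0.77 for Krt18 and -0.39 for Krt19 (not called). They were 0.41 for Vim, 0.56 for Fn1, 2.04 for Cdh2, 0.80 for Zeb2 and 2.21 for Twist1. Sums over leukocyte, endothelial and fibroblast markers were at most 4.07 CPM in any sample, none of those markers being at 0 in all samples. Of 4 lung epithelial lineage markers, Scgb1a1 was at 0 in all samples and the sum never passed 0.144 CPM, so the labelled tissue of origin is not visible in these transcripts. 393P_vector replicate 3, the deepest library, stood apart from the others. Over the 50 genes its median absolute log2 distance from the mean of replicates 1 and 2 was 0.35, against 0.06 between those replicates and 0.07 to 0.14 between pairs of 393P_ZEB1 samples. Its value lay outside the range of replicates 1 and 2 for 49 of the 50 genes, 22 above and 27 below. Over all tested genes this held for 12193 of 13892, so it was not particular to the 50. Values without 393P_vector replicate 3 are therefore given for each gene whose call changed without it, and for some others. Gene levels also differed by chromosome. The median log2 fold change of all tested genes was -0.02. Apart from chromosome Y, the medians of single chromosomes reached 0.64 on chromosome 18 and -0.43 on chromosome 17. On chromosome Y, with 6 tested genes and 0 of the 50, the median was -6.89. Of the 50 genes, 21 lay on a chromosome whose median was shifted by over 0.1. Each fold change was therefore also computed relative to the median of the other genes on its chromosome; what produced these shifts was not tested.

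Between 393P_vector and 393P_ZEB1 the 50 genes did not move in 1 direction. Cyclin E1, Cdk6, E2f3, Cdc25c, Pcna and Mcm6 rose, whereas Cdkn1b, which encodes the CDK inhibitor p27, E2f2, Mcm2, Mcm3, Mcm5, Ccna2, Aurka, Ccnd3, Cdk1 and Cdc25b fell. At an adjusted p below 0.05, 6 of 50 (12%) were called higher and 10 of 50 (20%) lower in 393P_ZEB1, whereas over the 13892 genes tested 18.3% were called higher and 19.3% lower. The share that fell was thus near that of all genes, and the share that rose lay below it. The changes were small, with a median absolute log2 fold change of 0.32 against 0.39 over all tested genes, and only Cdkn1b, 1 of 50, changed more than 2-fold (2580 of all 13892, 18.6%). The median level percentile of the 50 genes among all tested genes was 87.8, so these contrasts do not compare genes of like level. The median signed value was -0.10, with 22 genes positive and 28 negative. In 11 genes every 393P_ZEB1 sample lay above every 393P_vector sample (all genes 26.3%), in 17 every one lay below (all genes 26.5%), and in 22 the groups overlapped. All 16 genes called had separated groups. Relative to the chromosome medians, 10 of the 16 stayed called in the same direction, and Cdc25c turned in sign (-0.27).

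**Figure D1:**
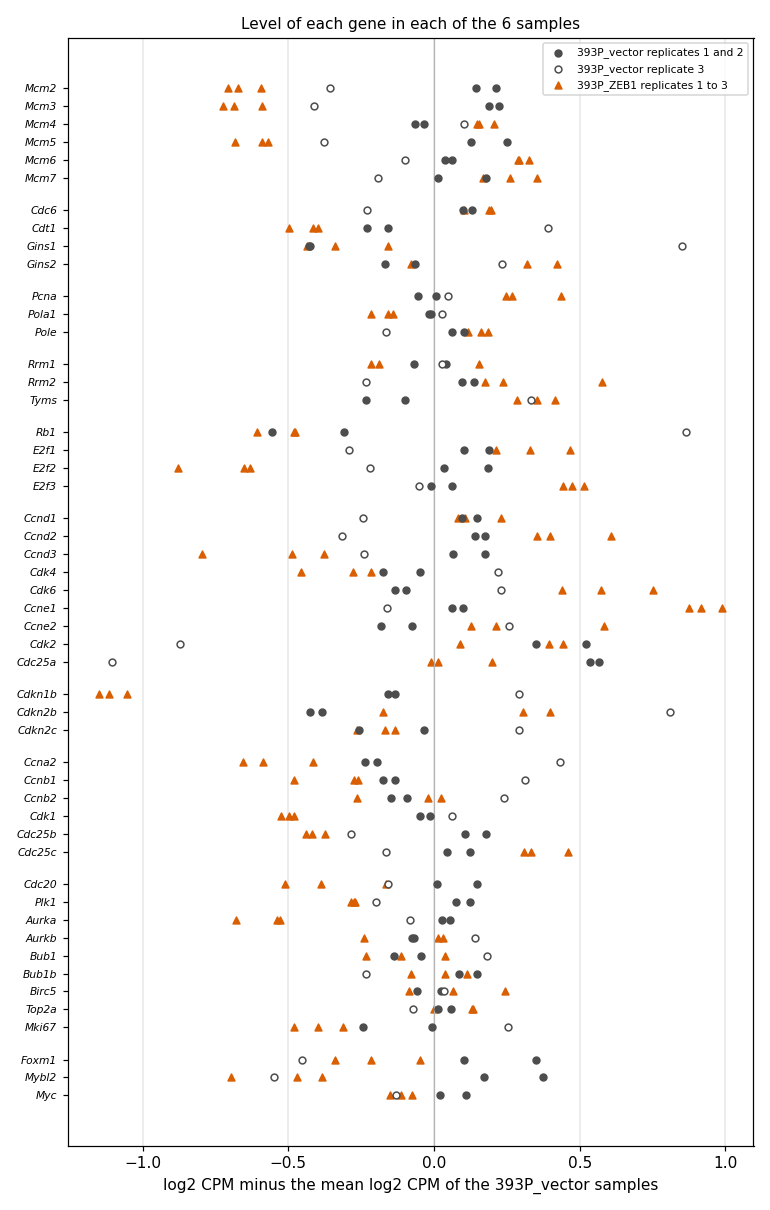
Level of each of the 50 genes in each of the 6 samples, as log2 CPM minus the mean log2 CPM of the 3 393P_vector samples, with genes in blocks by role; circles are 393P_vector (open, replicate 3) and triangles 393P_ZEB1. The open circle lies outside the range of the filled circles for 49 of 50 genes (12193 of 13892 over all tested genes), and Ccne1 and Cdkn1b show the widest separation of triangles from circles.

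Within the MCM helicase the direction differed between subunits, although its 6 subunits form 1 ring with 1 copy of each. Of the 6, 3 (50%) fell, 1 (16.7%) rose and 2 were not called. Over all tested genes 19.3% were called lower and 18.3% higher. Mcm2 measured 473, 497 and 335 CPM in 393P_vector replicates 1 to 3 and 263, 284 and 269 CPM in 393P_ZEB1 replicates 1 to 3. Mcm3 measured 510, 524 and 337 CPM against 278, 271 and 298 CPM, and Mcm5 measured 361, 393 and 254 CPM against 206, 219 and 222 CPM. In all 3, every 393P_ZEB1 sample was lower than every 393P_vector sample, and 393P_vector replicate 3 lay between replicates 1 and 2 and the 393P_ZEB1 samples. The log2 fold changes were -0.68 ± 0.16 for Mcm2 (SE; adjusted p = 0.0122), -0.69 ± 0.17 for Mcm3 (0.0165) and -0.64 ± 0.16 for Mcm5 (0.0188). Without 393P_vector replicate 3 they were -0.84, -0.87 and -0.80, with adjusted p between 5.37e-06 and 1.18e-05. Relative to the median of chromosome 6 (-0.36), the change of Mcm2 was -0.32 and no longer passed the test (adjusted p = 0.164), while Mcm3 and Mcm5 stayed lower by 0.76 and 0.59 (adjusted p = 0.0132 and 0.029).

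Mcm6 went the other way, from 206, 203 and 184 CPM in 393P_vector to 241, 247 and 242 CPM in 393P_ZEB1. The 393P_ZEB1 values were all higher and close to each other, and the log2 fold change was 0.30 ± 0.09 (adjusted p = 0.0396; 0.24 and adjusted p = 0.0983 relative to its chromosome). Mcm4 measured 256, 250 and 281 CPM against 302, 292 and 290 CPM. Its groups were separated, and its change of 0.17 ± 0.10 did not pass the test (adjusted p = 0.21), but did without 393P_vector replicate 3 (0.22, adjusted p = 0.0245). Relative to its chromosome the sign turned (-0.08). Mcm7 measured 187, 209 and 162 CPM against 208, 221 and 236 CPM, with overlapping groups, and its change of 0.25 ± 0.12 did not pass the test (adjusted p = 0.141). Without 393P_vector replicate 3 the value of Mcm7 was 0.16 (adjusted p = 0.136). Of all annotated exonic bases of Mcm7, 7.25% are shared with Ap4m1 on the other strand. This share and those given below refer to annotated exons, which are longer than the counted length (4426 against 2381 bases for Mcm7). The shared part of the counted bases is therefore not known.

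Per kilobase of exon, the scale on which genes can be compared, the subunits moved toward each other. In 393P_vector the levels ran from 68.6 ± 4.06 CPM per kilobase for Mcm6 to 159 ± 36.3 for Mcm3 (SD, n = 3), a ratio of 2.32 between the highest and the lowest mean, and in 393P_ZEB1 they ran from 63.4 ± 2.59 for Mcm5 to 98.4 ± 4.75 for Mcm3, a ratio of 1.55. The sum of Mcm2, Mcm3 and Mcm5 over that of Mcm4, Mcm6 and Mcm7, on the same scale, was 1.92, 1.96 and 1.39 in 393P_vector and 0.923, 0.935 and 0.943 in 393P_ZEB1. This ratio was composed after the values were seen and is given with no test. Its subunits were grouped by their direction of change, so some separation is built in. It is above 1 in every 393P_vector sample and below 1 in every 393P_ZEB1 sample. The value of 393P_vector replicate 3 lies between the other 393P_vector samples and the 393P_ZEB1 samples. These levels are not adjusted for chromosome medians, which were -0.36 for chromosome 6 (Mcm2) and 0.25 for chromosome 16 (Mcm4). Relative to the chromosome medians, 0 of the 6 subunits were called higher and 2 lower (all tested genes 16.1% and 14.4%). The E2F strings printed above occurred in subunits of both directions.

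**Figure D2:**
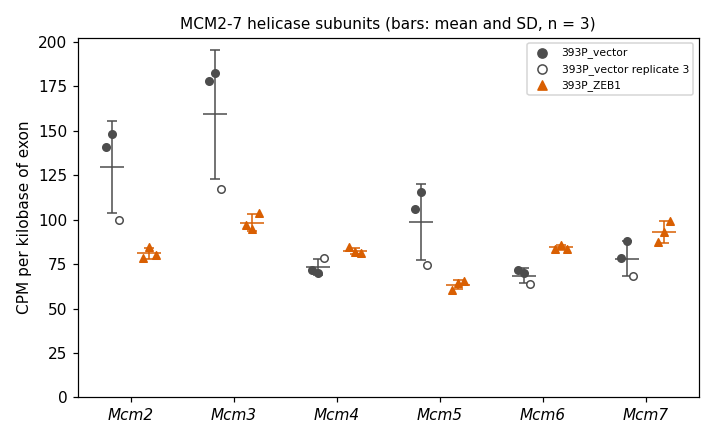
Level of each MCM subunit in CPM per kilobase of exon; points are samples (circles 393P_vector, open for replicate 3; triangles 393P_ZEB1), and horizontal marks with bars are the mean and SD of 3 samples. Mcm2, Mcm3 and Mcm5 are lower and Mcm4 and Mcm6 higher in every 393P_ZEB1 sample, and the spread of subunit means narrows from a ratio of 2.32 to 1.55.

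Of the other replication genes, Pcna, the sliding clamp that tethers polymerases to DNA, was the only 1 to pass the test. It measured 83.5, 87.2 and 89.8 CPM in 393P_vector and 117, 104 and 103 CPM in 393P_ZEB1, all higher, for a log2 fold change of 0.32 ± 0.10 (adjusted p = 0.0388), and it stayed higher relative to its chromosome (0.37, adjusted p = 0.0267). The annotation holds 2 pseudogenes named after Pcna, so reads could be divided among copies. The polymerase genes moved little: Pola1, the catalytic subunit of DNA polymerase alpha, fell short of the test at -0.17 ± 0.09 (adjusted p = 0.166), and Pole, the leading-strand polymerase, at 0.15 ± 0.11 (adjusted p = 0.295), although the groups of both were separated.

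None of the 4 licensing and firing genes passed the edgeR test, 0 did so at an unadjusted p below 0.05 or by DESeq2, and 1 was called higher by limma voom. Gins2, a GINS subunit and the highest of the 4 per kilobase of exon (25.4 CPM per kilobase in 393P_vector), measured 23.2, 25.0 and 30.7 CPM against 24.7, 34.9 and 32.6 CPM, with overlapping groups and a change of 0.23 ± 0.17. Of its 4097 annotated exonic bases, 67.3% are shared with Gse1 on the opposite strand, but the counted length of Gins2 was only 1033 bases. The sources do not say whether counting used the strand. Reads from Gse1 could thus be included, to an extent that cannot be told. Gins1 was at 14.2, 14.1 and 34.3 CPM in 393P_vector, so that its value of -0.44 ± 0.34 became 0.12 without replicate 3. Cdt1, the loader of the helicase, was low in both groups, at 5.50 ± 1.36 and 3.99 ± 0.148 CPM (SD, n = 3), and its separated groups gave -0.47 ± 0.20 (adjusted p = 0.108). The value of Cdt1 was -0.24 without 393P_vector replicate 3 (adjusted p = 0.173). For its partner Cdc6 the value was 0.15 ± 0.12 (adjusted p = 0.366), with a negative sign (-0.11) relative to its chromosome.

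The 3 genes of deoxynucleotide supply were likewise not called, with 0 at an unadjusted p below 0.05 by edgeR or by DESeq2 and 1 called higher by limma voom. Rrm2, the S phase subunit of ribonucleotide reductase, measured 352, 343 and 273 CPM in 393P_vector and 478, 362 and 378 CPM in 393P_ZEB1. Its groups were narrowly separated, and its change was 0.33 ± 0.15 (adjusted p = 0.128). Without 393P_vector replicate 3 the value of Rrm2 was 0.22 (adjusted p = 0.127). Rrm1, the large subunit, was at -0.07 ± 0.13 with overlapping groups. The ratio of Rrm2 to Rrm1 per kilobase rose from 1.14 ± 0.171 to 1.5 ± 0.0191 (SD, n = 3, a description with no test). The 393P_vector mean of this ratio was 1.23 without replicate 3. Tyms, thymidylate synthase, measured 39.9, 36.4 and 54 CPM against 52.1, 57.0 and 54.7 CPM. Replicate 3 of 393P_vector alone reached the 393P_ZEB1 range, and the change of 0.33 ± 0.16 (adjusted p = 0.142) became 0.52 without it (adjusted p = 0.000707).

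The E2F factors parted. E2f2, an activator E2F at chr4:136172394-136196056 on the plus strand (GRCm38), measured 15.4, 17.1 and 12.9 CPM in 393P_vector and 8.17, 9.58 and 9.70 CPM in 393P_ZEB1, a log2 fold change of -0.73 ± 0.15 (adjusted p = 0.00818). E2f3, an activator of the same subfamily, measured 80.7, 76.8 and 74.5 CPM against 110, 105 and 107 CPM, a change of 0.48 ± 0.09 (adjusted p = 0.00517). Neither pair of groups overlapped, and both calls held in each of the 6 fits that left out 1 sample and relative to the chromosome median (-0.76 and 0.34, adjusted p = 0.00759 and 0.0249). Per kilobase, E2f3 was 4.8 ± 0.599 times E2f2 in 393P_vector and 11 ± 1.35 times in 393P_ZEB1 (SD, n = 3; a description). E2f1, which had the highest level per kilobase of E2f1, E2f2 and E2f3 in both groups, measured 58.1, 61.6 and 44.1 CPM against 62.6, 68.0 and 74.7 CPM, narrowly separated, with a change of 0.33 ± 0.15 that did not pass the test (adjusted p = 0.127). Without 393P_vector replicate 3 the value of E2f1 was 0.19 (adjusted p = 0.109). Rb1, the pocket protein that holds E2F factors inactive, was at 3.76, 4.47 and 10.1 CPM in 393P_vector and 3.96, 3.98 and 3.64 CPM in 393P_ZEB1. Only 393P_vector replicate 3 was high, and the value of -0.67 ± 0.36 (adjusted p = 0.183) was -0.09 without it.

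Among the G1 cyclins and their kinases, Ccne1 changed most. Cyclin E1 is the partner of CDK2 at the start of S phase, and its gene lies on the minus strand at chr7:38097984-38107490 (GRCm38, from the files). It measured 25.5, 26.2 and 21.8 CPM in 393P_vector and 44.8, 46.1 and 48.5 CPM in 393P_ZEB1. All 393P_ZEB1 values lay well above all 393P_vector values, the log2 fold change was 0.92 ± 0.12 (1.90-fold; adjusted p = 0.000592), and it was 0.94 relative to its chromosome (adjusted p = 0.000589). Its paralogue Ccne2 measured 47.6, 44.2 and 59.8 CPM against 75.1, 58.0 and 54.6 CPM. These groups overlapped through 393P_vector replicate 3, and the change of 0.31 ± 0.17 (adjusted p = 0.189) was 0.45 without that sample (adjusted p = 0.0159). Ccne2 shares 17.4% of its exonic bases with Ints8.

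Cdk6, a partner of D-type cyclins, measured 50.6, 49.3 and 63.4 CPM in 393P_vector and 90.9, 73.2 and 80.5 CPM in 393P_ZEB1. Every 393P_ZEB1 sample was higher, and the log2 fold change was 0.58 ± 0.14 (adjusted p = 0.0139; 0.51 and adjusted p = 0.0273 relative to its chromosome). Cdk4, the other such kinase, had separated groups in the opposite direction but did not pass the test (-0.32 ± 0.13, adjusted p = 0.0952; -0.03 relative to chromosome 10), and it shares 19.7% of its exonic bases with Tspan31. The value of Cdk4 was -0.20 without 393P_vector replicate 3 (adjusted p = 0.0803). Cdk4 remained the more abundant on the scale per kilobase, and the ratio of Cdk6 to Cdk4 went from 0.0951 ± 0.00547 to 0.18 ± 0.0356 (SD, n = 3; a description).

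The D-type cyclins sense growth signals, and Ccnd1 was the most abundant of the 50 genes per kilobase of exon in both groups (633 and 693 CPM per kilobase). It measured 2551, 2637 and 2013 CPM in 393P_vector and 2794, 2522 and 2564 CPM in 393P_ZEB1. These groups overlapped, with a change of 0.13 ± 0.13 (adjusted p = 0.485), and 23.4% of the exonic bases of Ccnd1 are shared with LTO1. Ccnd3 fell from 80.8, 87.2 and 65.4 CPM to 44.5, 55.2 and 59.5 CPM, with no overlap and a log2 fold change of -0.55 ± 0.16 (adjusted p = 0.0263). It lies on chromosome 17, whose median was itself lower by 0.43, and relative to it the value was -0.12 (adjusted p = 0.588). Ccnd2 measured 355, 347 and 252 CPM against 479, 402 and 415 CPM. Its groups were separated and its change was 0.44 ± 0.15 (adjusted p = 0.0581); it passed the test without 393P_vector replicate 3 (0.30, adjusted p = 0.0184) and relative to its chromosome (0.80, adjusted p = 0.00629). Of the summed D-type cyclin level per kilobase, Ccnd1 made up 87.6% in both groups, Ccnd2 7.60 ± 0.373% and 9.45 ± 0.385%, and Ccnd3 4.78 ± 0.111% and 2.99 ± 0.565% (SD, n = 3).

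Cdc25a, the phosphatase that activates CDK2, showed how far 393P_vector replicate 3 could differ: it measured 53.3, 54.5 and 17.1 CPM in 393P_vector and 42.2, 37.1 and 36.5 CPM in 393P_ZEB1. With that sample the value was -0.11 ± 0.38 (adjusted p = 0.85), and without it -0.48 ± 0.09 (adjusted p = 0.00134). Cdk2 was low in the same sample at 75.6 CPM, against 176 and 198 CPM in the other 393P_vector samples, and was not called with it (0.20 ± 0.32) or without it (-0.12 ± 0.11).

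The largest change of the 50 genes was in a CDK inhibitor. Cdkn1b, at chr6:134920401-134925525 on the plus strand of GRCm38, encodes p27, which restrains cyclin E and cyclin A complexes with CDK2. It measured 69.6, 68.4 and 93.4 CPM in 393P_vector and 36.8, 35.2 and 34.4 CPM in 393P_ZEB1. The 393P_ZEB1 samples lay close together and below all others, and the log2 fold change was -1.12 ± 0.14 (2.17-fold lower; adjusted p = 0.000712). It was -0.96 without 393P_vector replicate 3 (adjusted p = 4.02e-06), and -0.77 relative to chromosome 6 (adjusted p = 0.00525). Cdkn2b, which encodes the CDK4 and CDK6 inhibitor p15, measured 28.2, 27.4 and 64.5 CPM against 32.6, 45.5 and 48.5 CPM. Its value of 0.07 ± 0.34 (adjusted p = 0.885) became 0.60 ± 0.16 without 393P_vector replicate 3 (adjusted p = 0.0094). Cdkn2c, another inhibitor of CDK4 and CDK6, was not called (-0.21 ± 0.17, adjusted p = 0.374).

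**Figure D3:**
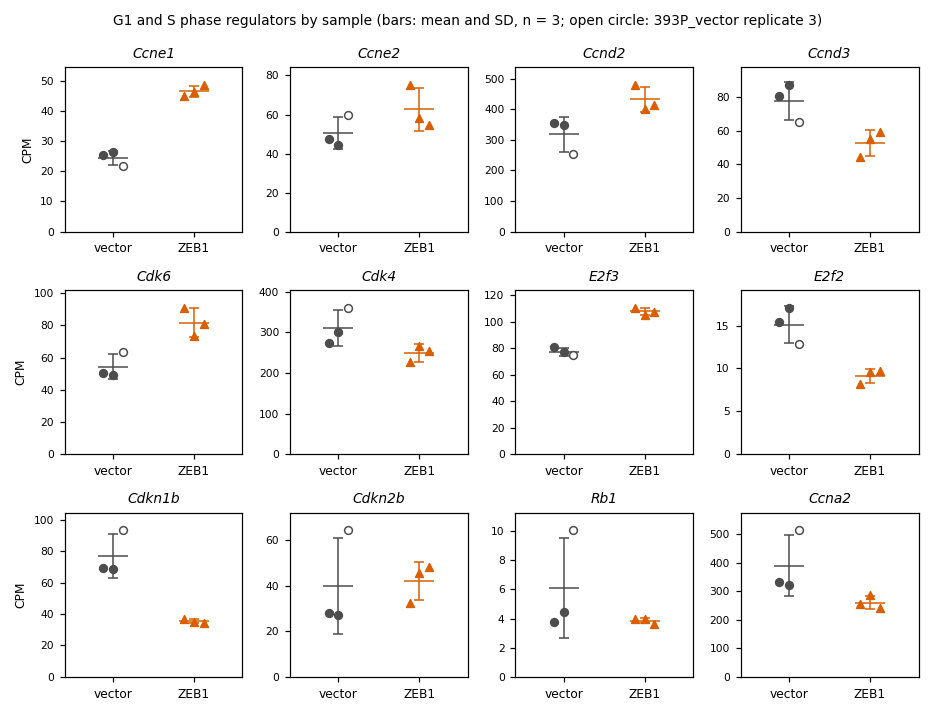
CPM of 12 regulators of G1 and S phase in each sample (circles 393P_vector, open for replicate 3; triangles 393P_ZEB1), with the mean and SD of 3 samples as bars; each panel has its own axis, starting at 0. The groups overlap for Ccne2, Cdkn2b and Rb1 and are separated in the other panels. The open circle lies far from the filled ones for Cdkn2b, Rb1 and Ccna2.

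The cyclins and kinase that drive G2 and mitosis were lower or not called. Ccna2, the cyclin of S phase and G2, measured 333, 323 and 514 CPM in 393P_vector and 254, 285 and 242 CPM in 393P_ZEB1. All 393P_ZEB1 samples were lower, for a log2 fold change of -0.58 ± 0.19 (adjusted p = 0.0457), which was -0.33 without the high 393P_vector replicate 3 (adjusted p = 0.00805). Ccna2 shares 12.5% of its exonic bases with Exosc9. Cdk1, the mitotic CDK, at chr10:69336635-69352912 on the minus strand (GRCm38), measured 281, 288 and 303 CPM against 202, 208 and 206 CPM. Both groups were tight and did not overlap, and the change was -0.50 ± 0.09 (adjusted p = 0.00389), of which -0.21 remained relative to chromosome 10 (adjusted p = 0.128). Ccnb1, a B-type cyclin, had separated groups and did not pass the test (-0.35 ± 0.16, adjusted p = 0.114), but did relative to its chromosome (-0.49, adjusted p = 0.0484). Without 393P_vector replicate 3 the value of Ccnb1 was -0.18 (adjusted p = 0.124). Ccnb2 was not called (-0.09 ± 0.14). The annotation holds a pseudogene named after each of these B-type cyclins, and also 1 after Ccnd3 and 1 after Tyms.

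The CDC25 phosphatases, which remove inhibitory phosphates from CDKs, differed in direction. Cdc25b measured 222, 234 and 170 CPM in 393P_vector and 154, 152 and 159 CPM in 393P_ZEB1, lower in all 3 (-0.42 ± 0.13, adjusted p = 0.0406; -0.38 and adjusted p = 0.0694 relative to its chromosome). Cdc25c measured 38.3, 36.3 and 31.4 CPM against 48.4, 43.6 and 44.3 CPM, higher in all 3 (0.36 ± 0.12, adjusted p = 0.0444). Cdc25c lies on chromosome 18, where the median of all genes was higher by 0.64, and relative to that median its value was -0.27 (adjusted p = 0.124), so that its direction turned; it also shares 12.7% of its exonic bases with Gm3550.

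Of the 9 genes of mitosis, Aurka alone passed the edgeR test, so that 1 (11.1%) was called lower and 0 higher. Over all tested genes 19.3% were called lower and 18.3% higher. Of the 9, 2 were called lower by DESeq2 and 4 by limma voom, and 4 were lower at an unadjusted p below 0.05. In each of these 0 were higher. Aurora A is the centrosome and spindle kinase, encoded at chr2:172356196-172370506 on the minus strand (GRCm38). Its transcript measured 227, 231 and 210 CPM in 393P_vector and 139, 153 and 154 CPM in 393P_ZEB1. The gap between the groups was wider than the spread within either, the log2 fold change was -0.58 ± 0.10 (adjusted p = 0.00269), and relative to its chromosome it was -0.54 (adjusted p = 0.00456). Its relative Aurkb, the kinase of the chromosomal passenger complex, had overlapping groups and was at -0.06 ± 0.12 (adjusted p = 0.705). The genes Cdc20, Plk1 and Mki67 had every 393P_ZEB1 sample below every 393P_vector sample without passing the test. Cdc20, the activator of the anaphase-promoting complex, measured 172, 189 and 153 CPM against 119.5, 152 and 130 CPM (-0.35 ± 0.13, adjusted p = 0.0669). Plk1 measured 169, 175 and 140 CPM against 133, 132 and 133 CPM (-0.28 ± 0.11, adjusted p = 0.0835). Mki67, the proliferation marker Ki-67, measured 291, 247 and 348 CPM against 210, 222 and 236 CPM (-0.41 ± 0.14, adjusted p = 0.0541). Without 393P_vector replicate 3 all 3 were called lower, at -0.43 (adjusted p = 0.00536), -0.38 (adjusted p = 0.00112) and -0.27 (adjusted p = 0.0274), and Mki67 also without 393P_vector replicate 2 (adjusted p = 0.024).

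The remaining mitotic genes overlapped between groups. Top2a, the topoisomerase that untangles sister chromatids and the most abundant of the 9 per kilobase, measured 1453, 1410 and 1326 CPM against 1532, 1395 and 1527 CPM, a value of 0.09 ± 0.10 (adjusted p = 0.536). The spindle checkpoint genes Bub1 (-0.11 ± 0.12) and Bub1b (0.02 ± 0.13) and the passenger subunit Birc5 (0.08 ± 0.11) were close to 0 as well. With these SEs, a value near 0 does not show that a gene was without change.

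The 3 transcription factors of proliferation were not called by edgeR or DESeq2; 1 was lower at an unadjusted p below 0.05 and 2 were called lower by limma voom. Mybl2, which encodes B-MYB, measured 143, 164 and 86.5 CPM in 393P_vector and 78.0, 91.4 and 97.0 CPM in 393P_ZEB1 (-0.56 ± 0.23, adjusted p = 0.0887). Foxm1 measured 208, 175 and 119 CPM against 158, 140 and 129 CPM (-0.23 ± 0.20, adjusted p = 0.391). In both genes 393P_vector replicate 3 was the only 393P_vector sample within or below the 393P_ZEB1 range, and without it both were called lower, at -0.79 (adjusted p = 0.000114) and -0.43 (adjusted p = 0.00559); relative to the median of chromosome 6 the sign of Foxm1 turned (0.12). Myc, the most abundant of the 3 per kilobase, measured 419, 445 and 377 CPM against 371, 391 and 381 CPM, with overlapping groups (-0.12 ± 0.10, adjusted p = 0.411).

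**Figure D4:**
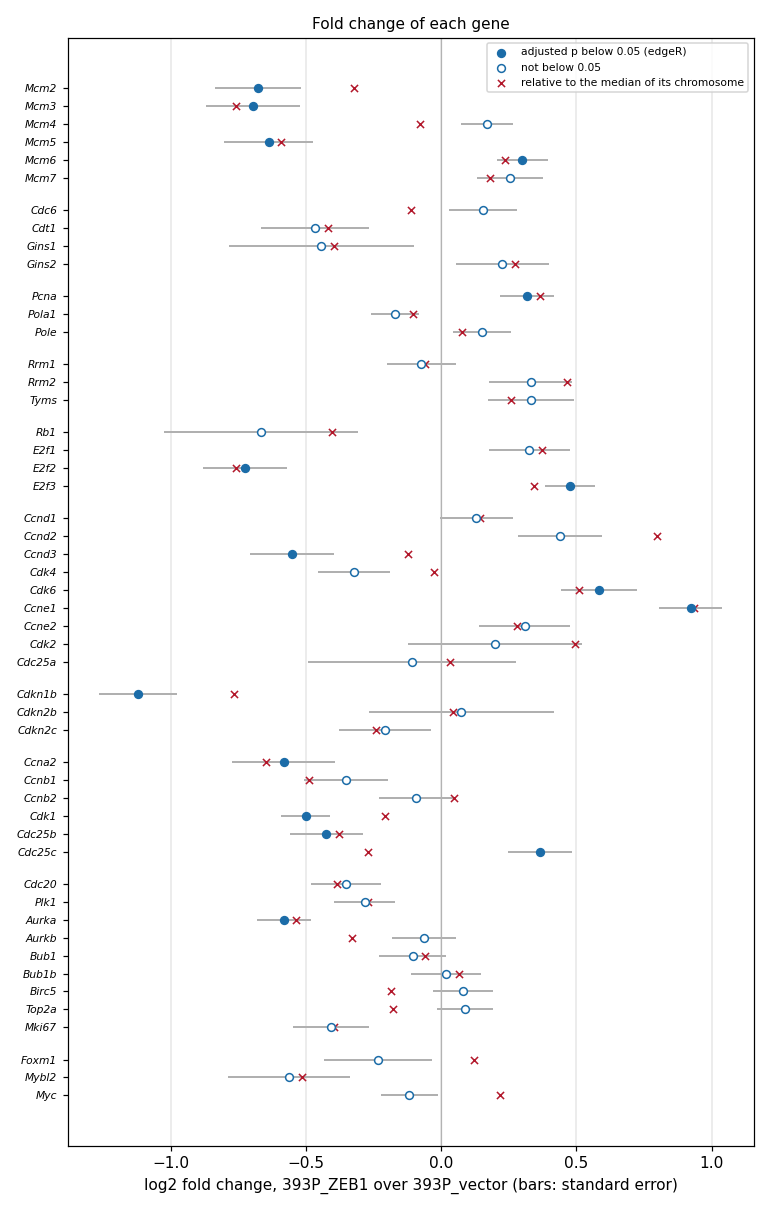
Log2 fold change of each of the 50 genes, 393P_ZEB1 over 393P_vector, with SE bars; filled circles passed an adjusted p of 0.05 and open circles did not, and crosses give the value relative to the median of the other genes on the same chromosome. Circle and cross lie close together for Ccne1, Aurka and Mcm5, and on opposite sides of 0 for Cdc25c.

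Across the 50 genes, 393P_vector replicate 3 and the chromosome medians bore on the calls in different ways. Without that replicate, 11 were called higher and 16 lower (22% and 32%; all tested genes 26.2% and 26.8%). All 16 genes called with it stayed called, and 11 joined them, namely Mcm4, Tyms, Ccnd2, Ccne2 and Cdkn2b upward and Cdc25a, Cdc20, Plk1, Mki67, Foxm1 and Mybl2 downward. Relative to the chromosome medians, 5 were called higher and 7 lower (all tested genes 16.1% and 14.4%). Of the 16, 10 stayed called in the same direction, whereas Mcm2, Mcm6, Ccnd3, Cdk1, Cdc25b and Cdc25c did not, and Ccnd2 and Ccnb1 were added. Each fit with 1 sample fewer also has fewer degrees of freedom. E2f2, E2f3, Ccne1, Cdkn1b, Cdk1 and Aurka were called in all 6 such fits. Mcm5, Mcm6, Pcna, Cdc25b and Cdc25c were called only in the fit without 393P_vector replicate 3, with adjusted p of 0.0518 to 0.0805, 0.0774 to 0.124, 0.076 to 0.132, 0.11 to 0.132 and 0.0637 to 0.134 in the other 5 fits. Mcm3 was also called without 393P_vector replicate 2 (adjusted p = 0.0464) and Ccnd3 without 393P_ZEB1 replicate 3 (adjusted p = 0.0465), but neither in the remaining 4 fits (0.0518 to 0.0694 and 0.0747 to 0.0944). Ccna2 was not called without any 1 of the 393P_ZEB1 samples (0.0897 to 0.154). Mcm2 missed the threshold without 393P_ZEB1 replicate 1 (0.0582) or replicate 3 (0.0539), and Cdk6 without 393P_ZEB1 replicate 1 (0.0581) or 393P_vector replicate 1 (0.0509). An exact permutation test on a single gene cannot go below p = 0.1 with 3 samples against 3, and every gene with separated groups reached that value.

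Other genes of the same processes were drawn from 4 lists. Of 123 genes listed, 122 were tested, and 14 (11.5%) were called higher and 18 (14.8%) lower, against 18.3% and 19.3% of all tested genes. Without 393P_vector replicate 3 these counts were 28 and 39, against 26.2% and 26.8% of all tested genes. Relative to the chromosome medians they were 14 and 16, against 16.1% and 14.4% of all tested genes. In the mitosis list 11 of 40 genes (27.5%) were called lower and 0 higher by edgeR (15 and 0 at an unadjusted p below 0.05, 12 and 0 by DESeq2, 18 and 3 by limma voom). The median log2 fold change was -0.27 beside -0.02 over all tested genes. Without 393P_vector replicate 3, 16 were called lower and 4 higher, and relative to the chromosome medians 10 were called lower and 1 higher. Among those that fell were Ccnf, which encodes cyclin F (-1.01 ± 0.13, adjusted p = 0.000736), and Espl1, which encodes separase (-0.92 ± 0.18, adjusted p = 0.00612). Without 393P_vector replicate 3 these values were -1.13 and -1.11, and relative to their chromosomes both were -0.58 (adjusted p = 0.0119 and 0.0453). Ube2c, the ubiquitin-conjugating enzyme of the anaphase-promoting complex, measured 114, 96.6 and 210 CPM in 393P_vector and 69.8, 78.2 and 57.6 CPM in 393P_ZEB1. All 393P_ZEB1 samples were lower, and the log2 fold change of -1.03 ± 0.29 (adjusted p = 0.0249) was -0.62 without the high 393P_vector replicate 3 (adjusted p = 0.00224).

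In the list of replication factors 6 of 43 were called higher (14.0%) and 3 lower (6.98%), against 18.3% and 19.3% of all tested genes. This split depended on 393P_vector replicate 3, without which 11 were called higher and 11 lower (all tested genes 26.2% and 26.8%). Relative to the chromosome medians it was 3 and 2 (all tested genes 16.1% and 14.4%). Chaf1b, a subunit of chromatin assembly factor 1 (0.75 ± 0.13, adjusted p = 0.00358), Rpa1, the large subunit of the single-strand binding protein RPA (0.68 ± 0.13, adjusted p = 0.00538), and Cdc45, the helicase activator (0.68 ± 0.13, adjusted p = 0.00607), rose. They lie on chromosomes 16 and 11, whose medians were raised, and relative to these their values were 0.50, 0.42 and 0.43 (adjusted p = 0.0238, 0.0471 and 0.0446). The other listed subunits of RPA and chromatin assembly factor 1 did not pass the test. Rpa2 was at -0.19 (adjusted p = 0.235), Rpa3 at -0.75 (0.0719) and Chaf1a at -0.30 (0.299). Without 393P_vector replicate 3 they were at -0.25 (0.0436), -0.34 (0.0503) and -0.52 (0.00144). Orc1 (-0.69 ± 0.12, adjusted p = 0.00274) and Orc2 (-0.42 ± 0.10, adjusted p = 0.0159), subunits of the origin recognition complex, fell. Orc3, Orc4, Orc5 and Orc6 were not called, at 0.03, -0.24, -0.25 and -0.48. Uhrf1, which couples DNA methylation to replication, also fell (-0.81 ± 0.13, adjusted p = 0.00256), but relative to chromosome 17 it was at -0.38 and did not pass the test (adjusted p = 0.0668).

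Partners of RB, E2F and MYC were called higher in 5 of 22 cases (22.7%) and lower in 3 (13.6%), against 18.3% and 19.3% of all tested genes. Without 393P_vector replicate 3 these counts were 7 and 7 (all tested genes 26.2% and 26.8%). Relative to the chromosome medians they were 5 and 4 (all tested genes 16.1% and 14.4%). Of the MAX-binding genes known as antagonists of MYC, Mxd4 (1.46 ± 0.18, adjusted p = 0.000475), Mxd3 (1.45 ± 0.18, adjusted p = 0.000574) and Mxi1 (1.11 ± 0.09, adjusted p = 6.39e-05) rose. The others on the list did not pass the test, with values of -0.01 ± 0.25 for Mxd1 (adjusted p = 0.973) and 1.07 ± 0.38 for Mnt (adjusted p = 0.0589); without 393P_vector replicate 3, Mnt was called higher at 0.71 (adjusted p = 0.00205). Mybl1, a relative of Mybl2 (-0.95 ± 0.19, adjusted p = 0.00675), and the atypical E2F E2f7 (-0.73 ± 0.10, adjusted p = 0.00117) fell, and E2f7 was at -0.44 relative to chromosome 10 (adjusted p = 0.0152). The other gene to fall, named after its values were seen, was Mycn, at only 0.314 ± 0.0887 and 0.0898 ± 0.0352 CPM (SD, n = 3).

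Of 17 further CDK inhibitors, kinases and checkpoint genes tested, 3 were called higher (17.6%) and 1 lower (5.88%), against 18.3% and 19.3% of all tested genes. Without 393P_vector replicate 3 these counts were 6 and 5 (all tested genes 26.2% and 26.8%). Relative to the chromosome medians they were 5 and 0 (all tested genes 16.1% and 14.4%). Cdkn2a, the neighbour of Cdkn2b that encodes the p16 and p19 proteins, rose from 178 ± 18.7 to 325 ± 35.7 CPM (SD, n = 3; 0.87 ± 0.13, adjusted p = 0.00136), and Ccng2, which encodes cyclin G2, rose by 0.57 ± 0.10 (adjusted p = 0.00258). The other that rose, likewise named afterwards, was Ccnb3 at 0.404 ± 0.11 and 1.11 ± 0.457 CPM (SD, n = 3). Pkmyt1, an inhibitory kinase of CDK1, fell by 0.36 on the log2 scale (adjusted p = 0.0483), but stood at 0.07 relative to chromosome 17 (adjusted p = 0.704).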

How the data were processed

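Per the labels, RNA was purified with an RNeasy kit and libraries were made with a SOLiD total RNA kit. The authors deposited read counts per gene and RPKM values for each of the 6 samples, with gene coordinates on GRCm38; the aligner and counter are not given in the sources used here. The RPKM values, which the authors computed from the counts, were not used for any result. Of 24214 genes, 13892 passed filterByExpr (minimum count 10) in edgeR 4.0.16 under R 4.3.3 and were tested with TMM scaling and a robust quasi-likelihood fit with group as the only term, since the study states no test for these data. Adjusted p is the Benjamini-Hochberg value over all 13892 genes (threshold 0.05), and SEs are the log2 fold change over the root of F. The biological coefficient of variation was 0.184. Alternatives were DESeq2 1.42.0, limma 3.58.1 voom, other scalings, filters and thresholds, a replicate block, the chromosome median and leaving out each sample. The scripts were tested on simulated data. Of several promoter windows of a gene, the one nearest its counted 5′ end was used. The 50 genes and the lists were chosen with earlier results of these data known. Named genes were all 50. Values in every sample are given for those called, those whose call changed without 1 sample and the most abundant per kilobase of each role. Of the lists, up to 3 rises and 3 falls with a mean of at least 5 CPM were named, with some other list members beside them. No libraries were duplicates: the mean chi-square per gene between replicates was 21.1 to 332.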

Additional observations from a re-analysis of the deposited data

How the results depend on the processing

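Of the 50 genes, 6 were called higher and 10 lower. An adjusted p below 0.01 left 2 and 4, and testing for more than a 1.5-fold change left 1 and 1. Limma voom, which gave 393P_vector replicate 3 a sample weight of 0.111, called 14 and 18. Leaving out 1 sample gave 2 to 11 higher and 4 to 16 lower, the highest counts being those without 393P_vector replicate 3. Of the other cell cycle genes, 14 higher and 18 lower became 5 and 2 in the test for more than a 1.5-fold change, 26 and 44 by limma voom, 10 to 28 and 10 to 39 with 1 sample left out, and 9 lower at an adjusted p below 0.01. Correlations of deviations between samples of the 2 groups were 0.28, -0.21 and -0.04 for equal replicate numbers and -0.18 to 0.22 for unequal ones. They gave no clear sign of pairing by replicate number, but with 3 samples per group they cannot exclude it. With the replicate number as a block, 3 were called higher and 7 lower, and Cdc25a was at 0.056.

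Signs turned relative to the chromosome median for Mcm4 (-0.080), Cdc6 (-0.11), Top2a (-0.18), Birc5 (-0.19), Cdc25c (-0.27), Cdc25a (0.032), Ccnb2 (0.047), Foxm1 (0.12) and Myc (0.22). They turned by limma voom for Bub1b (-0.10), Cdk2 (-0.10), Aurkb (0.041), Ccnb2 (0.078) and Gins1 (0.10). With 1 sample left out, log2 fold changes ranged from -0.66 to 0.12 for Gins1, -0.12 to 0.46 for Cdk2, -0.48 to 0.14 for Cdc25a, -0.13 to 0.60 for Cdkn2b, -0.16 to 0.038 for Ccnb2, -0.10 to 0.022 for Aurkb and -0.091 to 0.095 for Bub1b. Of these, Gins1, Cdk2, Ccnb2, Aurkb and Bub1b turned without 393P_vector replicate 3, and only Cdc25c had passed the test with the sign that turned. The cause was not tested. DESeq2 size factors, DESeq2's own test, both filters and dropping the 10 most abundant genes turned no sign.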
